A study of Homo sapiens with 12 samples.

Results

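The genes described here code for proteins that fold, oxidise and bind calcium with secreted proteins inside the endoplasmic reticulum (ER). The list names 10 genes: ERP27, RCN1, RCN2, HSPA5, P4HB, PDIA3, PDIA4, PDIA6, ERO1A and ERO1B. A gene was read from a probe set that carries its symbol and no other, and from the brightest such probe set over the 12 arrays where there were several. By that rule 9 of the 10 were measured, among 18404 genes in the table. Both probe sets of PDIA3 also carry the symbol of its pseudogene PDIA3P1, so PDIA3 has no value here. ERP27 and RCN1 were chosen from the differences they show in these same arrays, and their values are given as a description with no test. The same holds for their standard errors, intervals and ranks. The other 7 measured genes were tested.

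The samples are spheroids of HepG2, a cell line from a human liver tumor. Of the 12 arrays, 4 hold HIF-1α knockdown cells, 4 hold HIF-2α knockdown cells and 4 hold wild type cells, each from a different spheroid experiment. All spheroids were 10 days old and came from stirred flasks, and RNA was amplified with a kit intended for 250 microdissected cells, per the labels. HIF-1α (gene HIF1A) and HIF-2α (gene EPAS1) are the subunits through which oxygen controls the hypoxia-inducible transcription factors. The labels do not state the way the genes were knocked down, the number of clones, any control construct in the wild type cells or the depth in the spheroid that was sampled. The p-values measure the spread over these 12 arrays.

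Proteins that enter the ER are held by chaperones until they fold, and their cysteines are joined into disulfide bonds by the protein disulfide isomerases. Those isomerases are reoxidised by the ERO1 oxidases, which pass electrons to molecular oxygen, so that disulfide formation and oxygen supply meet in this compartment. Calcium is stored there by low-affinity binding proteins, and many of the chaperones need it. Hepatocytes, whose markers were bright on these HepG2 arrays, secrete large amounts of plasma protein. When unfolded protein accumulates, the sensors of the unfolded protein response raise the transcription of chaperone and isomerase genes, in part through a promoter sequence called the ER stress element.

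Promoter sequence is shown for the genes that carry this element, because it is the regulatory sequence that links the chaperone, an isomerase and an oxidase of the list. The windows come from RefSeq, build GRCh38.p14, and 8 members have a window there. The 250 bases before the start site were searched on both strands for the ER stress element, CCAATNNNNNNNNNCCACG, which contains a CCAAT box. It was found in 26 of 35116 windows, or 0.074%, and 3 of these belong to HSPA5, PDIA6 and ERO1B. Each stretch is written in the direction of its gene, with the match in capitals. In ERO1B the match lies on the opposite strand, so that its letters are the reverse complement.
HSPA5, chr9:125241376-125241424, minus strand: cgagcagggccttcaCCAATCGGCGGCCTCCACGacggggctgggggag
PDIA6, chr2:10812838-10812886, minus strand: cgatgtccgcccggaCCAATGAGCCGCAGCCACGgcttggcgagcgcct
ERO1B, chr1:236282168-236282208, minus strand: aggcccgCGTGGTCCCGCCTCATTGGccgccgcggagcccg

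The same windows were searched for ACGTG, a form of the core that hypoxia-inducible factors bind, because the study lowered 2 of these factors. It was found in 18.5% of all windows, and in those of RCN1, ERO1A and PDIA4 among the members. In ERO1A and PDIA4 the match is on the opposite strand, where it reads CACGT. A match describes the letters and does not show that a factor binds there.
RCN1, chr11:32090917-32090951, plus strand: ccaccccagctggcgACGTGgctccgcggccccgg
ERO1A, chr14:52695653-52695687, minus strand: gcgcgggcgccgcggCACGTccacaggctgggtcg
PDIA4, chr7:149028687-149028721, minus strand: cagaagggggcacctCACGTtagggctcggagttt
The other form of the core, GCGTG, was found in 32.2% of all windows, and among the members in those of P4HB, PDIA6, ERO1A and ERO1B. The windows of RCN2 and HSPA5 held neither form, and those of RCN1, RCN2, ERO1A, P4HB and PDIA4 held no ER stress element. Of these last genes all but ERO1A held CCAAT boxes, as did 32.0% of all windows. PDIA4 and PDIA6 have 2 windows each, and the matches shown lie in 1 of them; GCGTG of PDIA6 lies in the other.

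All values below are deposited log2 values of 4 arrays per group, given in the order of their replicate numbers. A difference is a mean log2 value minus another, SE is the moderated standard error of limma, and a gene is called when its adjusted p, over all 18404 genes, is under 0.05. HIF1A averaged 9.46 ± 0.18 in HIF-1α knockdown and 10.70 ± 0.08 in wild type (SD), and its fall of 1.23 was called (adjusted p = 0.002408). EPAS1 averaged 9.89 ± 0.16 in HIF-2α knockdown and 11.01 ± 0.18 in wild type, and it decreased by 1.12 (adjusted p = 0.0002059). Arrays correlated with each other at 0.984 to 0.996 across probe sets. On the first principal component, which holds 24.3% of the variance, HIF-2α knockdown replicate 2 lay at 25.26 and the other arrays between -11.82 and 3.26. The lowest values were raised on 3 arrays, HIF-2α knockdown replicate 4 and wild type replicates 1 and 2 (0.1 percentile 6.33 to 6.35, against 6.11 to 6.23 on the others). The brightest values also differed: the 99th percentile of the probe sets lay at 12.50 to 12.80 on HIF-1α knockdown arrays, 12.66 to 13.15 on HIF-2α knockdown arrays and 12.77 to 13.20 on wild type arrays. Hepatocyte markers were bright, with ALB between 13.10 and 14.27. The 11 fibroblast and endothelial markers had array means of 6.98 to 7.05 in HIF-2α knockdown and 7.12 to 7.13 in HIF-1α knockdown, against 7.05 to 7.13 in wild type. Single markers ran from LUM, at 6.29 to 6.54, to PECAM1, at 7.73 to 8.49. PDGFRB, a receptor of fibroblasts and pericytes, was called lower in HIF-2α knockdown than in wild type (difference -0.40, adjusted p = 0.01085) and than in HIF-1α knockdown (-0.35, adjusted p = 0.01051), and PECAM1 differed between the knockdowns by -0.44 (adjusted p = 0.05032). The 8 leukocyte markers averaged 7.91 to 8.07 in HIF-2α knockdown and 8.01 to 8.09 in HIF-1α knockdown, against 7.99 to 8.14 in wild type. Among them CD14 was called lower in HIF-2α knockdown than in HIF-1α knockdown (-0.39, adjusted p = 0.008993), PTPRC lay between 6.41 and 6.70, and CD68 and LYZ were bright. The part of these markers in the results was not tested.

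ERP27 was higher in both knockdowns, and most in HIF-2α knockdown. ERP27 is a redox-inactive relative of the disulfide isomerases that binds unfolded protein and the isomerase PDIA3. Its values were 9.92, 10.03, 9.24 and 9.33 in HIF-2α knockdown spheroids, against 8.64, 8.55, 8.22 and 8.35 in wild type. The HIF-1α knockdown arrays read 8.93, 8.95, 8.72 and 8.96. The 3 groups did not overlap on any array, in the order HIF-2α knockdown, HIF-1α knockdown, wild type. Within HIF-2α knockdown, replicates 1 and 2 lay well above replicates 3 and 4. The difference of HIF-2α knockdown from wild type was 1.19 (SE 0.16), or 2.28-fold, and 1 gene of the table had a larger positive difference. HIF-1α knockdown exceeded wild type by 0.45 (SE 0.16), or 1.37-fold, and HIF-2α knockdown exceeded HIF-1α knockdown by 0.74, or 1.67-fold. These are bulk samples, in which fewer cells of a type and less RNA per cell cannot be told apart. With single arrays left out the difference of HIF-2α knockdown from wild type lay between 1.06 and 1.32.

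RCN1 was higher in HIF-1α knockdown and not in HIF-2α knockdown. RCN1 is reticulocalbin 1, an EF-hand protein of the ER lumen that binds calcium with low affinity. It measured 8.96, 9.10, 9.16 and 8.97 in HIF-1α knockdown and 7.93, 8.03, 8.14 and 7.88 in HIF-2α knockdown, against 8.15, 8.07, 8.33 and 8.28 in wild type. Every HIF-1α knockdown array lay above every array of the other groups, while the HIF-2α knockdown and wild type arrays overlapped. HIF-1α knockdown exceeded wild type by 0.84 (SE 0.076), or 1.79-fold, and 9 genes had a larger positive difference. HIF-2α knockdown lay 0.21 below wild type (difference -0.21, SE 0.076) and 1.05 below HIF-1α knockdown (difference -1.05, 2.07-fold). RCN1 thus had its lowest mean in HIF-2α knockdown, where ERP27 had its highest.

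RCN2, a reticulocalbin of the same family, had its highest mean in HIF-1α knockdown too, but it did not pass the test. Its values were 10.94, 11.22, 11.16 and 11.04 in HIF-1α knockdown and 11.05, 11.12, 10.52 and 10.47 in HIF-2α knockdown, against 10.43, 10.45, 10.71 and 10.02 in wild type. All 4 HIF-1α knockdown arrays lay above all 4 wild type arrays. In HIF-2α knockdown, replicates 1 and 2 lay at the level of HIF-1α knockdown and replicates 3 and 4 at that of wild type, the same split of replicates as for ERP27. The difference of HIF-1α knockdown from wild type was 0.69 (SE 0.16, 95% interval 0.34 to 1.03, 1.61-fold, adjusted p = 0.0633). It passed in 7 of its 20 alternatives. These were quantile normalization (0.66, adjusted p = 0.0472), only genes above the median level (adjusted p = 0.03766), only both compared groups in the fit (0.0218), trend and robust eBayes (0.01497) and a block for the replicate number (0.03497). It also passed without wild type replicate 3 (0.79, adjusted p = 0.02569) and without HIF-2α knockdown replicate 2 (0.69, adjusted p = 0.0408). HIF-2α knockdown differed from wild type by 0.39 (SE 0.16, adjusted p = 0.3444) and from HIF-1α knockdown by -0.30 (adjusted p = 0.4737).

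**Figure D1:**
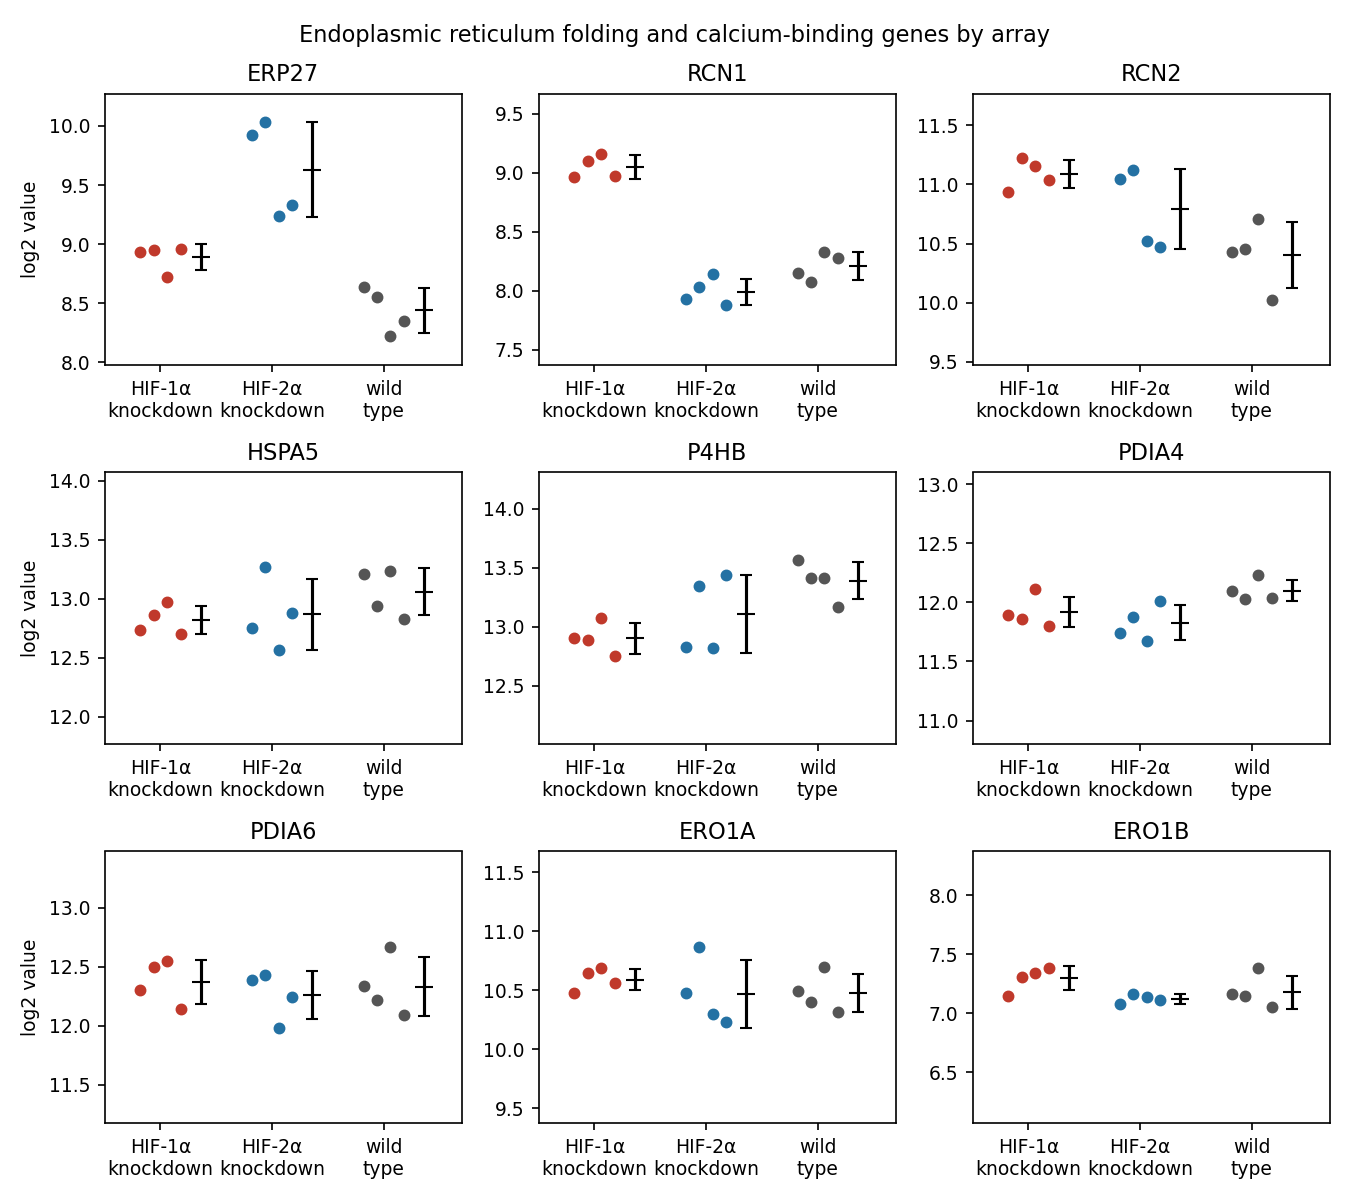
Log2 value of the 9 measured genes (vertical axes, each spanning the same range of log2 units) on each array, in HIF-1α knockdown (red), HIF-2α knockdown (blue) and wild type (grey), with the mean and SD of each group as a bar. The 4 HIF-2α knockdown arrays of ERP27 lie between 9.24 and 10.03, above all others, and the 4 HIF-1α knockdown arrays of RCN1 between 8.96 and 9.16.

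The chaperone HSPA5, also known as BiP, is the Hsp70 protein of the ER lumen and the main regulator of the stress sensors. It read 12.74, 12.86, 12.97 and 12.70 in HIF-1α knockdown and 12.75, 13.27, 12.57 and 12.88 in HIF-2α knockdown, against 13.21, 12.94, 13.24 and 12.83 in wild type. The groups overlapped in every comparison. HIF-1α knockdown differed from wild type by -0.24 (95% interval -0.52 to 0.050, adjusted p = 0.5068) and HIF-2α knockdown by -0.19 (-0.48 to 0.10, adjusted p = 0.6462). HSPA5 carries the ER stress element shown above.

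P4HB is protein disulfide isomerase itself, and it also serves as a subunit of collagen prolyl 4-hydroxylase and of the microsomal triglyceride transfer protein. It read 12.90, 12.89, 13.07 and 12.75 in HIF-1α knockdown and 12.83, 13.34, 12.82 and 13.44 in HIF-2α knockdown, against 13.56, 13.41, 13.41 and 13.17 in wild type. All HIF-1α knockdown arrays lay below all wild type arrays, and the HIF-2α knockdown arrays overlapped both. The difference of HIF-1α knockdown from wild type was -0.49 (SE 0.14, 95% interval -0.78 to -0.19) and did not pass (adjusted p = 0.1131). It was -0.020 after quantile normalization (adjusted p = 0.9265), and it passed with only both compared groups in the fit (-0.49, adjusted p = 0.02369). That of HIF-2α knockdown was -0.28 (adjusted p = 0.4414). A second probe set that carries only the P4HB symbol gave -0.32 (SE 0.10, adjusted p = 0.1412) for HIF-1α knockdown, with overlapping arrays.

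PDIA4, an isomerase with an additional catalytic domain that works with HSPA5, had its lowest mean in HIF-2α knockdown. Its values there were 11.74, 11.88, 11.67 and 12.01, and 11.89, 11.86, 12.11 and 11.80 in HIF-1α knockdown, against 12.10, 12.03, 12.23 and 12.04 in wild type. The HIF-2α knockdown arrays all lay below the wild type arrays. The difference was -0.27 (SE 0.084, 95% interval -0.45 to -0.092, adjusted p = 0.1727), and that of HIF-1α knockdown was -0.19 (adjusted p = 0.3614). PDIA6, an isomerase that works in complexes with HSPA5, spanned 12.14 to 12.55 in HIF-1α knockdown and 11.98 to 12.43 in HIF-2α knockdown, against 12.09 to 12.67 in wild type. Its differences from wild type were 0.045 (95% interval -0.24 to 0.33) and -0.070 (-0.35 to 0.21), with adjusted p = 0.9286 and 0.8921.

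ERO1A, the widely expressed oxidase of the isomerases, is known as a gene that hypoxia induces, and its promoter stretch with CACGT is shown above. It read 10.48, 10.65, 10.69 and 10.56 in HIF-1α knockdown and 10.48, 10.87, 10.30 and 10.23 in HIF-2α knockdown, against 10.49, 10.40, 10.70 and 10.32 in wild type. The arrays of all 3 groups overlapped. The differences from wild type were 0.12 (95% interval -0.15 to 0.38, adjusted p = 0.766) in HIF-1α knockdown and -0.0054 (-0.27 to 0.26, adjusted p = 0.9922) in HIF-2α knockdown. ERO1B, the related oxidase known from pancreas, read 7.15 to 7.38 in HIF-1α knockdown and 7.08 to 7.16 in HIF-2α knockdown, against 7.05 to 7.38 in wild type. Its adjusted p was 0.5802 and 0.8051 against wild type, and 0.2838 for HIF-2α knockdown against HIF-1α knockdown (difference -0.17).

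**Figure D2:**
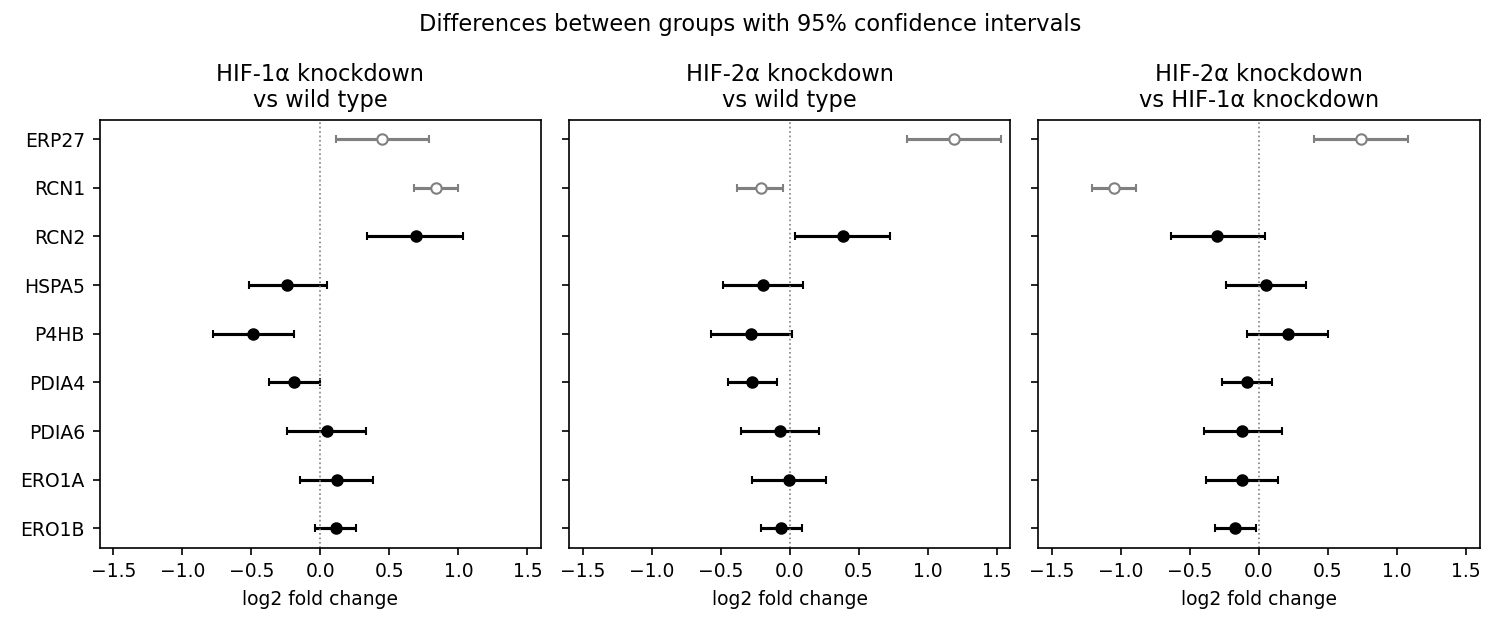
Difference in mean log2 value (horizontal axes) for each gene in the 3 comparisons, with 95% confidence intervals. ERP27 and RCN1, which were chosen for their differences, are open grey symbols, and their intervals are a description and no test. RCN2 (0.69) and P4HB (-0.49) lie farthest from 0 among the tested genes, both for HIF-1α knockdown against wild type.

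Of the 7 tested members, 0 were called in any of the 3 comparisons by limma. Unadjusted p was under 0.05 for 3 in HIF-1α knockdown against wild type, for 2 in HIF-2α knockdown against wild type and for 1 between the knockdowns. Over all genes the share with an unadjusted p under 0.05 was 13.2%, 12% and 13.6% in the 3 comparisons. Of all genes, 0.815% were called higher and 0.147% lower in HIF-1α knockdown than in wild type (150 and 27 genes). In HIF-2α knockdown 0.478% were called higher and 0.31% lower than in wild type (88 and 57 genes), and 0.967% higher and 1.8% lower than in HIF-1α knockdown (178 and 331 genes). The split of calls depends on the scaling of the arrays: quantile normalization gave 140 higher and 114 lower genes in HIF-1α knockdown against wild type, and 141 and 263 in HIF-2α knockdown against wild type. Centring each array on its median gave 67 and 18, and 34 and 38. The arrays of both groups did not overlap for 2 of 7 members in HIF-1α knockdown against wild type (RCN2 and P4HB, in opposite directions), where 7.84% of all genes did not overlap. The count was 1 of 7 (PDIA4) in HIF-2α knockdown against wild type, with 5.31% of all genes, and 0 of 7 between the knockdowns, with 9.08%. The median difference of the 7 was 0.045, -0.070 and -0.12 in the 3 comparisons, beside 0.0049, -0.011 and -0.012 over all genes. Quantile normalization made it 0.10, -0.073 and -0.24, with 7 of 7 differences negative between the knockdowns, in place of 5 of 7 as deposited. The 2 comparisons with wild type share its 4 arrays.

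Several differences of the brightest members moved with the scaling, and those of ERP27, RCN1 and RCN2 moved less. After quantile normalization HSPA5 differed by 0.15 between HIF-1α knockdown and wild type, in place of -0.24. PDIA6 differed by 0.28 in place of 0.045. Between the knockdowns HSPA5 differed by -0.26 (adjusted p = 0.04491) in place of 0.048, P4HB by -0.13 in place of 0.21, and PDIA4 by -0.24 (adjusted p = 0.04395) in place of -0.088. PDIA4 was also called against wild type after this scaling, at -0.27 in HIF-2α knockdown (adjusted p = 0.03884). ERP27 gave 1.12 in place of 1.19 in HIF-2α knockdown against wild type, and 0.37 in place of 0.45 in HIF-1α knockdown. RCN1 gave 0.77 in place of 0.84 in HIF-1α knockdown against wild type. Over all genes, the median change that quantile normalization made to a difference was at most 0.028 in size. The rank of P4HB from the brightest gene was 34 to 42 on HIF-1α knockdown arrays and 41 to 52 on HIF-2α knockdown arrays, against 23 to 51 on wild type arrays. That of HSPA5 was 43 to 52 in HIF-1α knockdown and 56 to 93 in HIF-2α knockdown, against 54 to 70 in wild type. In HIF-1α knockdown against wild type the ranks of HSPA5 thus separated without overlap, toward the bright end, although its deposited difference was -0.24. Those of PDIA6 separated too, at 91 to 147 against 149 to 188. So did the ranks of RCN1, at 4144 to 4668 against 6719 to 7256, and of RCN2, at 572 to 744 against 1052 to 1833. The ranks of ERP27 overlapped there, at 4631 to 5530 against 5273 to 7114. In HIF-2α knockdown the ranks of ERP27 were 2084 to 3652, apart from those in wild type. Those of RCN1 were 7562 to 8299 there, also apart from wild type and toward the dim end, although the deposited values overlapped. The share of all genes whose ranks separate was not counted. Other bright genes were lower on the HIF-1α knockdown arrays too. The 10 measured hepatocyte markers averaged 11.86 to 12.14 per HIF-1α knockdown array and 12.16 to 12.78 per HIF-2α knockdown array, against 12.37 to 12.82 per wild type array. All 10 differences were negative in HIF-1α knockdown, 8 of 10 after quantile normalization, and 1 passed: FGB, a fibrinogen chain, which decreased by 1.75 (adjusted p = 9.033e-06). In HIF-2α knockdown FGB was called higher, at 10.36 ± 0.24 against 9.72 ± 0.11 in wild type (difference 0.63, adjusted p = 0.0196) and 7.97 ± 0.16 in HIF-1α knockdown (2.38, adjusted p = 1.66e-07). Its call against wild type was lost on centring (adjusted p = 0.06034), without the 3 arrays with raised lowest values (0.2082) and without wild type replicate 2 (0.05852) or 4 (0.05271). Of 47 cytosolic ribosomal protein genes, 46 differences were negative (37 after quantile normalization) and 1 passed, RPL11, which decreased by 0.78 (adjusted p = 0.03684). That call was lost without wild type replicate 1, 2 or 4, or without any one HIF-1α knockdown array (adjusted p = 0.0566 to 0.1288). RPL11 was also called higher in HIF-2α knockdown than in HIF-1α knockdown (0.76, adjusted p = 0.02061), a call lost without HIF-1α knockdown replicate 1 or 2 or HIF-2α knockdown replicate 2 or 4 (adjusted p = 0.05522 to 0.07041). The part of these shifts in the values of P4HB and HSPA5 was not tested.

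**Figure D3:**
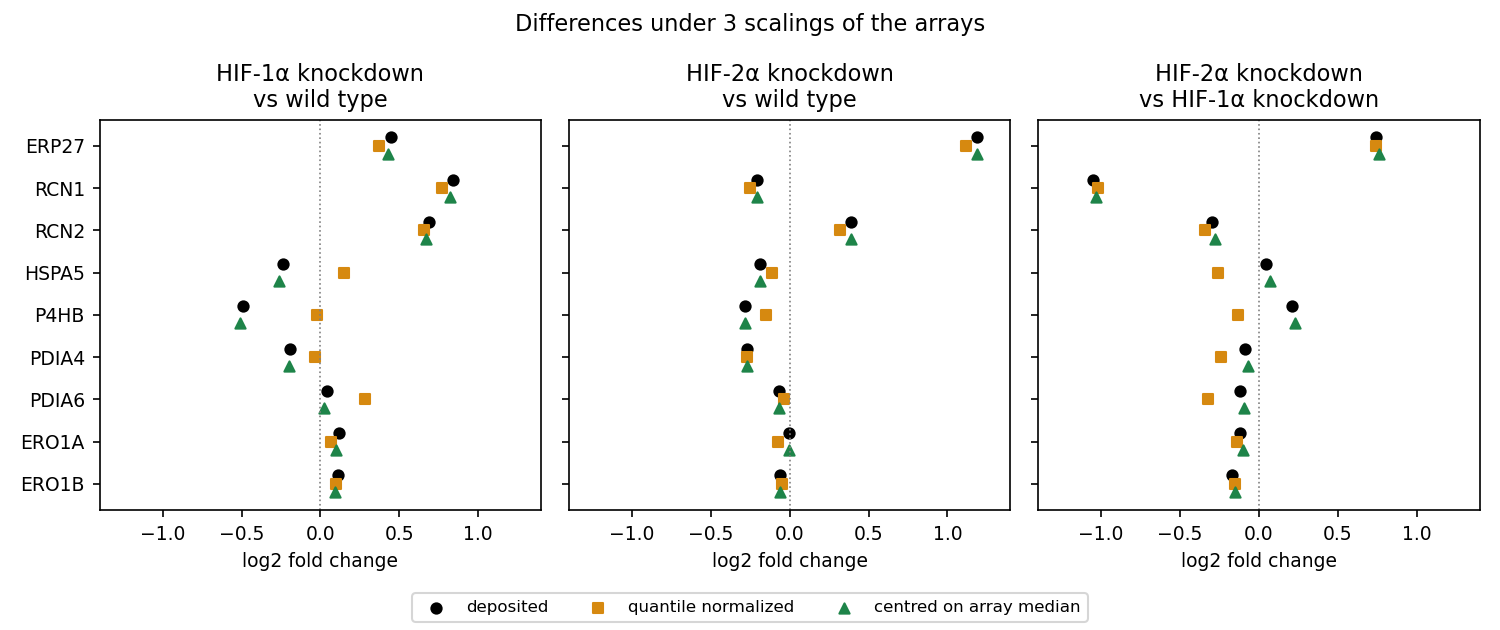
Difference in mean log2 value (horizontal axes) of each gene in the 3 comparisons with the values as deposited (black circles), after quantile normalization (orange squares) and with each array centred on its median (green triangles). P4HB in HIF-1α knockdown against wild type moves to -0.020 under quantile normalization, against -0.49 as deposited, while RCN1 gives 0.77 and 0.84.

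Many members had their highest or lowest value of a group on the same array. In wild type, replicate 3 held the highest value of 7 of the 9 measured members and replicate 4 the lowest of 6. In HIF-2α knockdown, replicate 2 held the highest of 6 members and replicate 3 the lowest of 5, and in HIF-1α knockdown replicate 3 held the highest of 6. The arrays with most of the highest values also had the highest 99th percentile of their groups (wild type 13.20, HIF-2α knockdown 13.15, HIF-1α knockdown 12.80). Wild type replicate 4 lay at 12.79, above replicate 2 at 12.77. The share of all genes with this pattern was not counted, and the part of array brightness was not tested. The mean of the 7 tested members ran from 11.20 to 11.41 over HIF-1α knockdown arrays and from 11.00 to 11.44 over HIF-2α knockdown arrays, against 11.07 to 11.48 over wild type arrays. The 3 groups overlapped in this average. HIF-2α knockdown replicate 2 is the array farthest along the first principal component. Without it ERO1A differed from wild type by -0.14, and HSPA5 by -0.32.

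**Figure D4:**
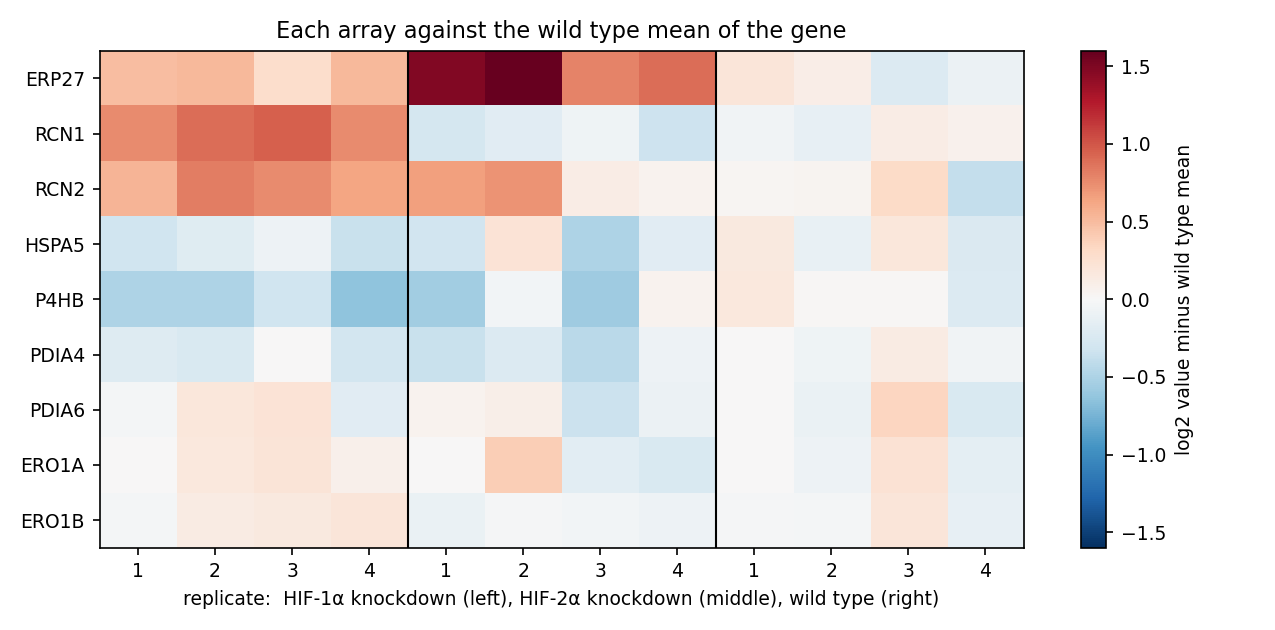
Log2 value of each measured gene on each array minus the wild type mean of that gene, with replicates 1 to 4 of HIF-1α knockdown, HIF-2α knockdown and wild type from left to right; red is above and blue below the wild type mean. ERP27 is above it on all 8 knockdown arrays, and RCN1 on all 4 HIF-1α knockdown arrays and none of the HIF-2α knockdown arrays.

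The genes whose pattern over the 12 arrays was most like that of ERP27 were PRKACB (Pearson r = 0.978), CCDC170 (r = 0.951) and NPNT (r = 0.946). PRKACB codes for a catalytic subunit of protein kinase A, and NPNT for the matrix protein nephronectin. NPNT lay at 8.98 to 9.70 in HIF-2α knockdown and 8.31 to 8.84 in HIF-1α knockdown, against 7.95 to 8.61 in wild type. Nearest to RCN1 were MB21D2 (r = 0.963), SLC51B (r = 0.962), a subunit of the bile acid exporter of the basolateral membrane, and the histone gene H2BC12 (r = 0.962). SLC51B lay at 8.81 to 9.22 in HIF-1α knockdown and 7.79 to 8.21 in HIF-2α knockdown, against 8.04 to 8.57 in wild type. Nearest to ERO1A were PSMC2 (r = 0.967), a proteasome ATPase, CLINT1 (r = 0.952) and STT3B (r = 0.947), a catalytic subunit of oligosaccharyltransferase. These correlations describe the same 12 arrays, with group differences and shared array effects included.

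Of the genes in the lists of other ER genes SERPINH1, HYOU1 and MBTPS1 were called. Counts of unadjusted p below stand beside the 13.2%, 12% and 13.6% of all genes given above. Of the 17 other measured disulfide isomerase relatives 0 passed by limma in any comparison, with medians of 0.040, -0.0011 and -0.021 and an unadjusted p under 0.05 for 2, 2 and 0 of them. The one with the smallest p in HIF-1α knockdown was AGR2, a mucin-associated relative, with 6.79 against 7.09 in wild type (difference -0.30, adjusted p = 0.1113). Of the 3 other reticulocalbin relatives 0 passed, with an unadjusted p under 0.05 for 1, 1 and 0. CALU, calumenin, had the largest difference from wild type, 0.32 in HIF-1α knockdown (10.79 against 10.47, adjusted p = 0.4874). RCN3 differed from wild type by 0.054 in HIF-1α knockdown and by 0.17 in HIF-2α knockdown, and SDF4 by -0.18 and -0.10.

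Of 32 other ER chaperones and cochaperones, 1 rose in HIF-1α knockdown against wild type and 1 fell in HIF-2α knockdown. Unadjusted p was under 0.05 for 12 of the 32 in HIF-1α knockdown against wild type, for 4 in HIF-2α knockdown against wild type and for 9 between the knockdowns. SERPINH1, the collagen chaperone HSP47, rose to 10.17 ± 0.09 in HIF-1α knockdown, against 9.78 ± 0.14 in wild type (difference 0.38, SE 0.073, adjusted p = 0.0251). It was also lower in HIF-2α knockdown than in HIF-1α knockdown (9.85 ± 0.07 against 10.17 ± 0.09, difference -0.31, adjusted p = 0.03549). HYOU1, the large Hsp70-like chaperone that exchanges nucleotide on HSPA5, fell to 10.06 ± 0.10 in HIF-2α knockdown, against 10.37 ± 0.07 in wild type (difference -0.32, adjusted p = 0.04808). The call of HYOU1 was lost without any one of 11 of the 12 arrays (adjusted p = 0.05409 to 0.129), all but HIF-1α knockdown replicate 3. The rise of SERPINH1 was lost without wild type replicate 1 (adjusted p = 0.05636) or 4 (0.05917), or without HIF-1α knockdown replicate 1 (0.06471), 2 (0.07436) or 3 (0.1036). Its difference between the knockdowns lost its call without HIF-2α knockdown replicate 1 (adjusted p = 0.05205), 3 (0.08979) or 4 (0.1134), or without HIF-1α knockdown replicate 1 (0.09988), 2 (0.07185) or 3 (0.1315). SERPINH1 and HYOU1 also lost their calls when arrays were centred on their medians (adjusted p = 0.08699 and 0.132 against wild type). The lectin chaperones CALR and CANX and the Hsp90 of the ER, HSP90B1, gave -0.27, -0.27 and -0.39 in HIF-1α knockdown, with adjusted p between 0.2769 and 0.4516. Most of the list went the other way: of the 32 differences from wild type there, 23 were positive and 9 negative (median 0.066).

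Of 15 measured sensors and factors of the unfolded protein response, 1 rose in HIF-1α knockdown and 0 passed in HIF-2α knockdown or between the knockdowns. Unadjusted p was under 0.05 for 2, 2 and 6 in the 3 comparisons. MBTPS1, the protease that activates ATF6, rose to 10.37 ± 0.06, against 10.03 ± 0.14 in wild type (difference 0.33, adjusted p = 0.03921). Its adjusted p was 0.08933 after quantile normalization, and it exceeded 0.05 when wild type replicate 1 (0.0866) or 2 (0.06456) was left out, or any one of the 4 HIF-1α knockdown arrays (0.08173 to 0.1378). DDIT3, which codes for the stress-induced factor CHOP, differed between the knockdowns by -0.31 (8.78 in HIF-2α knockdown, 9.09 in HIF-1α knockdown, adjusted p = 0.06118). XBP1 differed from wild type by -0.12 in HIF-1α knockdown and by -0.048 in HIF-2α knockdown, and ATF4 by -0.16 and -0.076. Of all 15 differences from wild type in HIF-1α knockdown, 11 were positive and 4 negative (median 0.054). In HIF-2α knockdown 6 were positive and 9 negative (median -0.048). The 19 measured genes of ER-associated degradation, the 19 of ER calcium handling, the 8 of oxidative folding outside ERO1, the 2 measured KDEL receptors and the 4 partners of P4HB held 0 genes called by limma. In the 3 comparisons unadjusted p was under 0.05 for 4, 2 and 3 genes of degradation, 3, 2 and 3 of calcium handling, 0, 2 and 4 of oxidative folding and 0, 2 and 0 partners of P4HB, and for 0 KDEL receptors. Among them GPX7, a peroxidase that oxidises P4HB, had 9.66 in HIF-2α knockdown against 9.13 in wild type (difference 0.53, adjusted p = 0.09611). SYVN1, the ubiquitin ligase of ER-associated degradation, had 9.29 in HIF-2α knockdown against 9.61 in wild type (-0.32, adjusted p = 0.1085), and HERPUD2 of the same list had 9.32 in HIF-1α knockdown against 9.14 in wild type (0.18, adjusted p = 0.1223). ORAI3, a plasma membrane channel that refills the ER store, had 8.59 in HIF-1α knockdown against 8.29 in wild type (0.30, adjusted p = 0.1133). MTTP, the partner of P4HB in lipid transfer, had 10.11 in HIF-2α knockdown against 9.59 in wild type (0.52, adjusted p = 0.2407), and P4HA1, its partner in collagen hydroxylation, had 9.71 against 10.08 (-0.36, adjusted p = 0.3839).

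**Figure D5:**
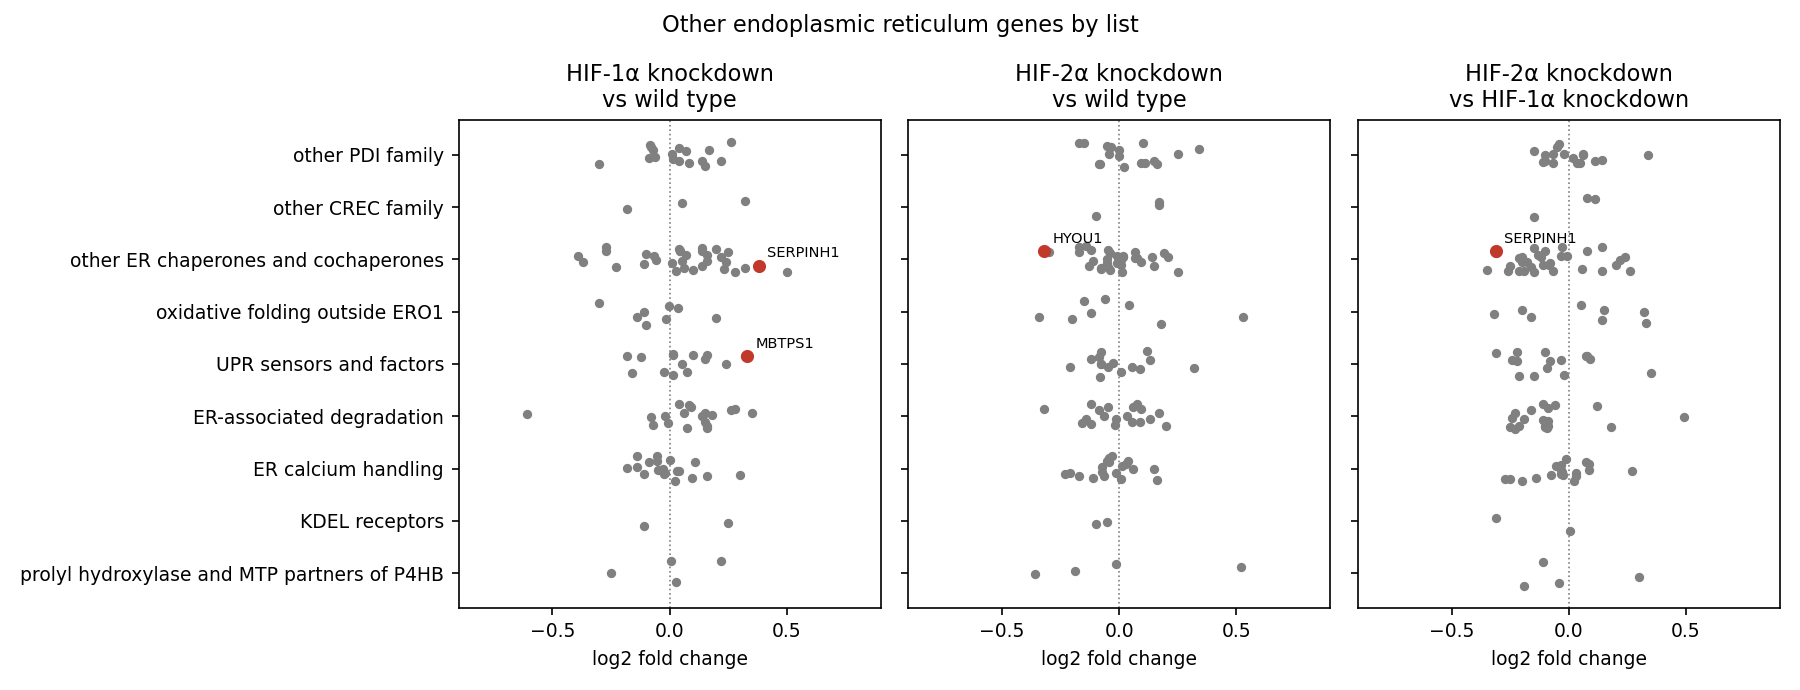
Difference in mean log2 value (horizontal axes) of every measured gene of 9 lists of other ER genes in the 3 comparisons (PDI, protein disulfide isomerase; CREC, the reticulocalbin family; UPR, unfolded protein response; MTP, microsomal triglyceride transfer protein); red points passed the test. SERPINH1 (0.38) and MBTPS1 (0.33) pass in HIF-1α knockdown against wild type, HYOU1 (-0.32) in HIF-2α knockdown against wild type and SERPINH1 (-0.31) between the knockdowns.

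The ER stress element shown for HSPA5, PDIA6 and ERO1B occurs in the windows of 25 genes, of which 19 were measured. Besides the 3 members these include CALR, CANX, HSP90B1, XBP1 and CRELD2. They also include NLRP4, GLRA2, FRG2C, TRIM5, SYNPO, TMEM120A and ZNF17, as the group was set by promoter sequence alone. Their differences from wild type were positive for 10 and negative for 9 in HIF-1α knockdown (median 0.01), and positive for 5 and negative for 14 in HIF-2α knockdown (median -0.05), with 0 called by limma in either and an unadjusted p under 0.05 for 3 and 1. Between the knockdowns 1 of 19 was called, where 0.967% of all genes were called higher and 1.8% lower. It was FICD, the enzyme that AMPylates HSPA5, lower in HIF-2α than in HIF-1α knockdown (difference -0.37, adjusted p = 0.0114). Against wild type FICD differed by 0.31 in HIF-1α knockdown (adjusted p = 0.05284), where all arrays lay above those of wild type. In HIF-2α knockdown it differed from wild type by -0.06 (adjusted p = 0.8128). FICD is named because it is the only called gene of the group, after its value was seen.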

How the data were processed

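Log2 expression values of 12 arrays (4 HIF-1α knockdown, 4 HIF-2α knockdown, 4 wild type) were used as the authors deposited them, in 1 table of 32321 probe sets. The log base was inferred from the range of 5.935 to 15.054, and the labels do not state the background correction, summarization or normalization. The number of arrays limits the precision. Of the probe sets 19158 had 1 gene symbol in the platform annotation, 1388 had several and 11775 had none. Current symbols were looked up, and 19128 were matched through Entrez identifiers. The brightest single-symbol probe set stood for a gene, which left 18404 genes.

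The genes were fitted together with limma 3.58.1 in R 4.3.3 (1 mean per group, eBayes, Benjamini-Hochberg over all genes), after a test on simulated data. No gene was filtered out. Members, lists and tests were chosen with earlier results of these data known. Named genes are all members, HIF1A and EPAS1, the called genes of each other list or, where it held none in a comparison, up to 2 with the smallest p, and the 3 nearest patterns to ERP27, RCN1 and ERO1A. CALR, CANX, HSP90B1, XBP1 and ATF4 were named as well known genes of their lists after their values were seen. The alternatives were 2 scalings, other probe set and filter rules, other fits, a replicate block and omitted arrays. Nothing in the labels says that a replicate number is shared between groups, so the numbers were not taken to pair arrays. Deviations of same-numbered arrays correlated at -0.039 to 0.637 in HIF-1α knockdown against wild type, which does not settle whether they were paired.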

Additional observations from a re-analysis of the deposited data

Results flagged for a closer look

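ERP27 in HIF-1α knockdown replicate 3 lay at 8.72, while the other 3 arrays of its group lay between 8.93 and 8.96. The gap to the nearest array was 0.898 of the range of the group, above the 95% critical value of Dixon's test for 4 values. Chance alone marks about 1 in 20 groups, and all 3 groups of each of the 9 measured members were searched.

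RCN1 lay above the wild type mean on all 4 HIF-1α knockdown arrays and below it on all 4 HIF-2α knockdown arrays, and HIF-2α knockdown minus HIF-1α knockdown was -1.05. This difference was not tested, because RCN1 was chosen for it.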

How the results depend on the processing

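Of 537 repeats of single-gene differences of the 9 measured members, 14 changed sign, all of genes that did not pass as deposited, and 11 newly passed, 1 of them with its sign changed (HSPA5); the cause was not tested. Quantile normalization turned HSPA5 to 0.15 in HIF-1α knockdown against wild type, and HSPA5 to -0.26 and P4HB to -0.13 between the knockdowns. Without the 3 arrays with a raised floor PDIA6 gave -0.0045 in HIF-1α knockdown and ERO1A 0.038 in HIF-2α knockdown against wild type. With single arrays left out, PDIA6 in HIF-1α knockdown ran from -0.036 to 0.16, and in HIF-2α knockdown ERO1A ran from -0.14 to 0.074, ERO1B from -0.11 to 0.0012 and PDIA6 from -0.15 to 0.044, each against wild type. HSPA5 between the knockdowns ran from -0.086 to 0.15.

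Of the 7 tested members, 0 passed as deposited. In HIF-1α knockdown against wild type 1 passed, RCN2, after quantile normalization, with genes above the median level, with trend and robust eBayes (adjusted p = 0.01497) and with the replicate block (adjusted p = 0.03497), and with single arrays left out 0 to 1 passed (RCN2 without wild type replicate 3 or HIF-2α knockdown replicate 2). With only both compared groups in the fit 2 passed, RCN2 (adjusted p = 0.0218) and P4HB (adjusted p = 0.02369). Quantile normalization gave 1 (PDIA4) in HIF-2α knockdown against wild type and 2 (PDIA4 and HSPA5) between the knockdowns, and single arrays left out gave 0 in both.

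Over all genes, 177 were called in HIF-1α knockdown against wild type, 145 in HIF-2α knockdown against wild type and 509 between the knockdowns. In that order, centring gave 85, 72 and 337, and omitting the 3 arrays with a raised floor 22, 37 and 259. Quantile normalization gave 404 and 888 in the last 2, and trend and robust eBayes 288 and 285 in the first 2. With only the groups compared there were 396 and 64 in the first 2. The replicate block gave 234, 202 and 562, and same-numbered arrays of the first comparison had deviations correlated at -0.039 to 0.637. With single arrays left out the first count ran between 50, when HIF-1α knockdown replicate 3 was omitted, and 483, when wild type replicate 3 was. The second ran between 61 and 219, from omitting wild type replicates 4 and 3, and the last between 211, from HIF-1α knockdown replicate 3, and 618, from HIF-2α knockdown replicate 1. Omitting HIF-2α knockdown replicate 2, the array apart on the first component, is among these. ERO1B has no value among genes above the median level. The fall of HIF1A lost its call without the 3 arrays (-1.24, adjusted p = 0.103). The alternatives for called genes of the related lists were added after the data were seen: SERPINH1 kept its call against wild type in 12 of 20, HYOU1 in 3, MBTPS1 in 9 and RPL11 in 11. FGB kept its fall in HIF-1α knockdown in 20 of 20 and its rise in HIF-2α knockdown in 16 of 20. FICD, which is on none of these lists, kept its call between the knockdowns in 20 of 20. PDGFRB kept its call against wild type in 17 of 19, and between the knockdowns SERPINH1 kept its call in 11 of 20, RPL11 in 14 of 20, FGB in 20 of 20, and PDGFRB and CD14 in 18 of 19 each, the exception being the omission of the 3 arrays with a raised floor (adjusted p = 0.05525 and 0.05548). Without detection calls, low levels such as that of ERO1B may hold no signal.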
